A study of Mus musculus with 58 samples.

Results

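The T cell genes described here are Cd3d, Cd3e, Cd3g, Cd4, Cd8a, Cd8b1, Cd5, Lck and Zap70, 9 of the 20018 genes that could be named on the array. They were chosen by name as components of the T cell receptor complex, its co-receptors and its first kinases, and each probe was named through the transcript accession printed with it. The 9 genes were carried by 12 of the 55681 different probes, with a second probe for Cd4, Cd8a and Zap70, and each gene is given by its brightest probe. RNA came from male Muta™Mouse, a transgenic mutation-reporter strain, aged about 13 weeks. All mice were gavaged daily for 28 days with olive oil, either alone (vehicle) or with dissolved indeno(123,cd)pyrene (IP), a polycyclic aromatic hydrocarbon, at a daily dose of 12.5, 25 or 50 mg per kg body weight (mg/kg-bw/day), and tissues were taken 72 h after the last dose. Lung gave 20 arrays, with 5 mice in each group, while liver and forestomach each gave 19, the vehicle group there holding 4 mice (1, 2, 3 and 5). Vehicle mouse 4 has a lung array only, and although the methods count 4 vehicle mice, all 5 lungs were used. Nothing joins these mice to separate litters or cages, so p-values measure the spread between mice. Each array compared Cy5-labelled tissue RNA with a Cy3-labelled reference RNA pooled from 11 mouse cell lines, so every level below is a log2 ratio of tissue over reference, and levels of different genes are not set against each other.

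T cells recognise antigen through a receptor whose variable chains signal through the CD3 subunits, encoded by Cd3d, Cd3e and Cd3g. Helper T cells carry the co-receptor CD4 and cytotoxic T cells carry CD8, a dimer of the products of Cd8a and Cd8b1, and both co-receptors bring the kinase LCK to the receptor. LCK phosphorylates the CD3 tails, the kinase ZAP-70 docks on them, and CD5 dampens the resulting signal. In a piece of whole tissue, fewer T cells and less RNA per T cell cannot be told apart.

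The tissue labels held. The mean log2 ratio of 6 lung genes such as Sftpc lay between 5.57 and 6.33 in lung, that of 6 hepatocyte genes such as Alb between 7.51 and 8.76 in liver, and that of 6 keratinized epithelium genes such as Krt5 between 4.00 and 5.24 in forestomach. Liver lies apart in technique as well as in tissue, since its arrays were on 3 slides of their own and were read with Feature Extraction 11.0.1.1, whereas lung and forestomach shared 5 slides read with version 10.7.3.1. Array brightness also varied. Probes well above background in Cy5 made up from 53.0 to 90.7% of the array in lung, from 37.6 to 78.9% in liver and from 43.0 to 85.9% in forestomach. In 11 arrays, called bright below, this share was over 1.3 times the tissue median. They were lung mice 3, 8, 13 and 18, which shared a slide, liver mice 9, 13, 15, 16 and 20, and forestomach mice 8 and 18.

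The genes of the 3 CD3 chains lie side by side on mouse chromosome 9 (build GRCm38.p6). Cd3g is annotated at chr9:44969572-44980431 and Cd3d at chr9:44981769-44987052, on opposite strands and with their starts 1338 bases apart, and Cd3e at chr9:44998735-45009663. RefSeq windows of the 250 bases before a transcript start were found for 7 of the 9 genes, 10 windows in all, but not for Cd4 and Cd8b1. Those of the CD3 genes are shown since these 3 genes are neighbours and Cd3e deviated together with both others across lungs (as given with the pairs of genes), at chr9:44981536-44981785, plus strand, chr9:45009612-45009861, minus strand, and chr9:44980432-44980681, minus strand. One window each of Lck (chr4:129573642-129573891, minus strand) and Zap70 (chr1:36764265-36764514, plus strand) is added since these kinases deviated together in liver (as given with the pairs of genes). Each is the only window of its gene that holds both cores marked below, so their sharing of both is not a result. Capitals mark the core bound by ETS factors, GGAAGT, and the core bound by RUNX factors, TGTGGT, each on either strand.
Cd3d: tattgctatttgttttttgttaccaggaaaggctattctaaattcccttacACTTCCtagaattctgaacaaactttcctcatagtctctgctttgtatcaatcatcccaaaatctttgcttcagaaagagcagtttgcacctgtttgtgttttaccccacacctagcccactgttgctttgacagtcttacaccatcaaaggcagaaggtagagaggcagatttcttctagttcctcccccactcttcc
Cd3e: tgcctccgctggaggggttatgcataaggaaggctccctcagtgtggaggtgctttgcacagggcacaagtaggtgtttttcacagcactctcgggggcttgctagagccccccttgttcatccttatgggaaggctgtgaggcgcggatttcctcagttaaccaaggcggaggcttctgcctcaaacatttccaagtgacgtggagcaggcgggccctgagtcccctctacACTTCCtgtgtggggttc
Cd3g: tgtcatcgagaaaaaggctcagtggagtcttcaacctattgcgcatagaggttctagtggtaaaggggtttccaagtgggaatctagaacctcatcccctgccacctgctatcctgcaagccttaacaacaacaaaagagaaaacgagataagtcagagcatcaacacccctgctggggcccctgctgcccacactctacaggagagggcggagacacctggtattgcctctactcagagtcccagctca
Lck: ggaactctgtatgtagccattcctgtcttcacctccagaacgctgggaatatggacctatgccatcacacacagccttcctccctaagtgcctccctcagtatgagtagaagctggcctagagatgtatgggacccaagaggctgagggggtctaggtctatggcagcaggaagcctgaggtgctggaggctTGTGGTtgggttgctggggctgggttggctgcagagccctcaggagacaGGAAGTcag
Zap70: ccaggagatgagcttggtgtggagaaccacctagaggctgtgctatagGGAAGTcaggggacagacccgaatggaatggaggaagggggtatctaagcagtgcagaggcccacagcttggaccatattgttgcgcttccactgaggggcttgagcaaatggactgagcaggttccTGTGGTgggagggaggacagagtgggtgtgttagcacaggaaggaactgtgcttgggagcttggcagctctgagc
Both strands were searched. The ETS letters stand in the windows of Cd3d, Cd3e, Cd5, both windows of Lck and 1 of the 3 of Zap70, and the RUNX letters in the printed windows of Lck and Zap70. Of 32851 windows of this length in the same table, 19.7% hold the ETS letters and 14% the RUNX letters. The E box CAGCTG, found in 13% of all windows, was in none of the 10. None held the letters TATAAA of a TATA box either, found on one strand or the other in 12.4% of all windows. The windows of Cd3g and Cd8a held none of the 4 motifs.

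In vehicle mice, most of the T cell genes had their highest ratio in lung, but Cd4 and Zap70 were highest in liver. Of the 9 genes, 6 were higher in lung than in liver (Cd3d, Cd3e, Cd3g, Cd8b1, Cd5 and Lck) and 2 were lower (Cd4 and Zap70). A call here needs both an FDR-adjusted limma p no higher than 0.05 and 1.5-fold or more between the means. Among all probes, 15.7% were higher and 11.1% lower in that comparison. Forestomach was higher than liver in 1 gene (Cd5) and lower in 3 (Cd4, Cd8b1 and Zap70), where 12.8% of all probes were higher and 9.88% lower. Against lung, forestomach was higher in 0 of the 9 genes and lower in 5 (Cd3d, Cd3g, Cd8b1, Lck and Zap70), with 8.9% of all probes higher and 10.6% lower. These comparisons used limma in 1 joint model of the 12 tissue and dose groups. For every comparison with liver, tissue cannot be told apart from the slides and software version of the liver arrays.

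**Figure D1:**
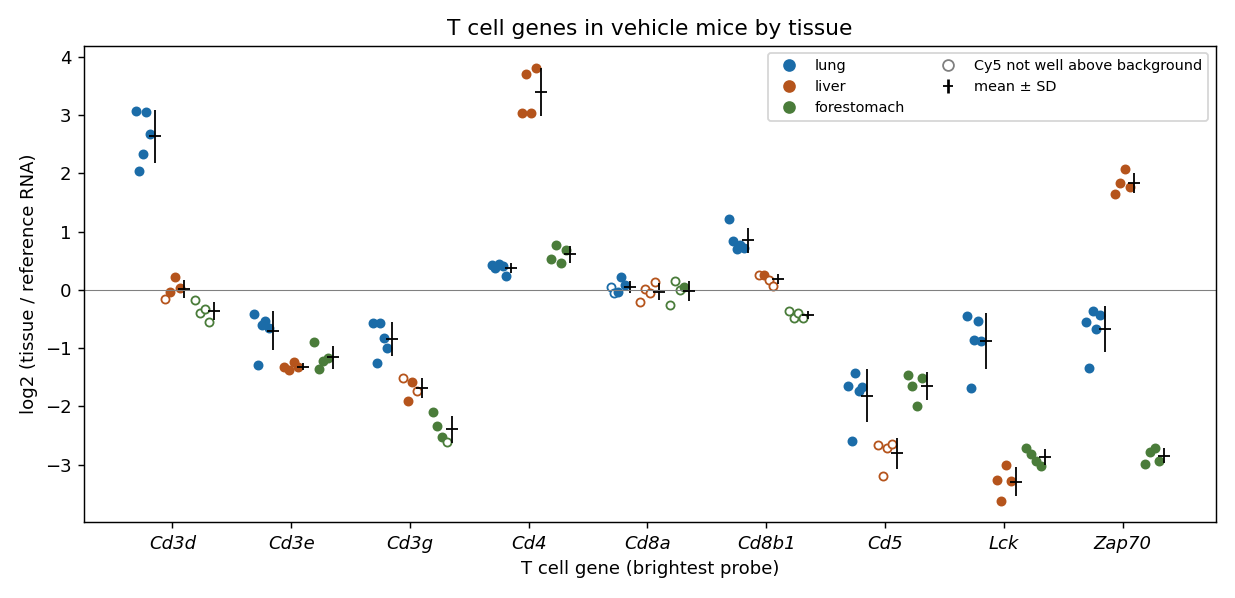
Log2 ratio of tissue over reference RNA (vertical axis) of the 9 T cell genes in vehicle mice. Each point is a mouse, coloured by tissue, hollow where the Cy5 signal was not well above background, with the mean ± SD beside it (n = 5 in lung, 4 in liver and in forestomach). Cd3d, Cd8b1 and Lck are highest in lung, while Cd4 and Zap70 are highest in liver.

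Among the CD3 chains, Cd3d separated the tissues most. In lung its log2 ratio was 3.06, 2.03, 2.34, 2.68 and 3.05 in vehicle mice 1 to 5. Liver gave −0.16, −0.04, 0.21 and 0.03 and forestomach −0.17, −0.40, −0.54 and −0.34 in mice 1, 2, 3 and 5. Every lung lay above every liver and forestomach sample. The means were 2.63 ± 0.45 (SD, n = 5), 0.01 ± 0.16 (n = 4) and −0.36 ± 0.16 (n = 4), so that Cd3d was 6.17-fold higher in lung than in liver (adjusted p = 3.07e-14). In forestomach Cd3d was not well above background on any vehicle array. The lung mean was at least 6.40-fold higher than forestomach. Bounds of this kind, here and below, compare normalized Cy5 signals and not the ratios to reference. They set the dim group at the lowest signal well above background on each array, or at the probe's own signal if that is higher. By the ratios Cd3d was 7.99-fold lower in forestomach than in lung. Liver and forestomach did not differ by limma (adjusted p = 0.287), although the groups did not overlap (exact permutation p = 0.0286).

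Cd3g, whose product pairs with CD3 epsilon, followed the same order with smaller gaps, with means of −0.84 ± 0.30 in lung (SD, n = 5), −1.69 ± 0.18 in liver (n = 4) and −2.39 ± 0.23 in forestomach (n = 4). It was 1.79-fold higher in lung than in liver (adjusted p = 0.0255), a call that rested on 2 of 4 vehicle livers with a Cd3g signal well above background, and 2.92-fold higher in lung than in forestomach (adjusted p = 5.80e-05). Leaving out lung vehicle mouse 1 or 3, or liver vehicle mouse 2 or 5, ended the call of Cd3g between lung and liver, with adjusted p of 0.0604, 0.0584, 0.0744 and 0.0524. Cd3e, the chain common to both CD3 pairs, differed least. Its log2 ratio was −0.42, −1.28, −0.61, −0.66 and −0.54 in the lungs of vehicle mice 1 to 5, against −1.32, −1.38, −1.24 and −1.33 in the livers of mice 1, 2, 3 and 5. Lung mouse 2 lay within the liver range, and the other lungs lay above it. The difference was 1.53-fold (adjusted p = 0.000241), close to the fold threshold, and without lung mouse 1 it was below it (0.55 on the log2 scale). In forestomach Cd3e averaged −1.16 ± 0.19 (n = 4), between the others, and its difference from lung passed the p threshold (adjusted p = 0.00843) but not the fold threshold.

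Of the co-receptors, Cd4 had its highest ratio in liver by a wide margin. Vehicle livers 1, 2, 3 and 5 read 3.04, 3.71, 3.04 and 3.81, whereas the 5 vehicle lungs lay between 0.23 and 0.44 and the 4 vehicle forestomachs between 0.46 and 0.77. Thus Cd4 was 8.12-fold lower in lung than in liver (adjusted p = 4.53e-25) and 6.90-fold lower in forestomach than in liver (adjusted p = 1.53e-22). Forestomach and lung did not differ by limma in the joint model (adjusted p = 0.222). Every vehicle forestomach nevertheless lay above every vehicle lung (exact permutation p = 0.0159). The second Cd4 probe was dim, with Cy5 well above background on 15 of 20 lung, 6 of 19 liver and 7 of 19 forestomach arrays. It gave vehicle means of 0.11, 0.39 and 0.09 in lung, liver and forestomach. However, it was well above background in only 1 of 4 vehicle livers, against 4 of 5 lungs and 0 of 4 forestomachs. The order of tissues by this probe thus rests mostly on dim signals. Its difference of liver from lung was only 1.22-fold and not called (adjusted p = 6.63e-05). The size of the Cd4 difference therefore depended on the probe. When both probes were averaged it was −1.65 on the log2 scale, against −3.02 with the brighter probe.

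Cd8b1, the beta chain of the CD8 dimer, ordered the tissues as lung over liver over forestomach, with means of 0.85 ± 0.21 (SD, n = 5), 0.19 ± 0.08 (n = 4) and −0.43 ± 0.06 (n = 4). The lungs of vehicle mice 1 to 5 read 1.21, 0.84, 0.69, 0.73 and 0.77, and the highest vehicle liver read 0.25. By the measured ratios lung was 1.58-fold higher than liver (adjusted p = 0.00513), although Cd8b1 was well above background in only 1 of the 4 vehicle livers. Lung was at least 1.75-fold higher than forestomach, where Cd8b1 was not well above background in any vehicle mouse. No such bound holds for liver over forestomach, since 3 of the 4 vehicle livers were dim too. By the measured ratios liver was 1.53-fold higher than forestomach (limma adjusted p = 0.0169). The Cd8b1 difference of lung from liver was below the fold threshold without lung vehicle mouse 1 (0.57 on the log2 scale), and it was 0.04 when Cy5 was used alone. Cd8a, the alpha chain, was near the background everywhere by its brightest probe, with Cy5 well above background on 14 of 20 lung, 5 of 19 liver and 5 of 19 forestomach arrays, and its vehicle means of 0.05, −0.03 and −0.02 in lung, liver and forestomach gave no called difference (adjusted p of 0.659 to 0.957). The second Cd8a probe was well above background on 19 of 20 lung arrays but only 4 of 19 liver and 2 of 19 forestomach arrays. By that probe vehicle lungs 1 to 5 read 0.70, 0.25, 0.26, 0.42 and 0.55, with a mean of 0.43 against 0.06 in liver and −0.01 in forestomach. Both differences passed the p threshold (adjusted p = 0.00417 and 0.000917) and neither passed the fold threshold.

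Cd5, which encodes an inhibitory receptor also carried by a subset of B cells, had similar ratios in lung and forestomach. Its vehicle means were −1.82 ± 0.45 in lung (SD, n = 5), −1.66 ± 0.24 in forestomach (n = 4) and −2.81 ± 0.26 in liver (n = 4), and lung and forestomach overlapped (adjusted p = 0.628). In liver Cd5 was not well above background in any vehicle mouse. Lung was at least 1.67-fold and forestomach at least 1.79-fold higher.

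The kinases divided. Lck followed Cd3d, with lungs of vehicle mice 1 to 5 at −0.45, −1.68, −0.86, −0.89 and −0.54, livers 1, 2, 3 and 5 at −3.27, −3.62, −3.01 and −3.29, and forestomachs at −2.71, −2.81, −3.02 and −2.94. Lung exceeded liver 5.34-fold (adjusted p = 3.56e-14) and forestomach 3.97-fold (adjusted p = 4.12e-11), and liver and forestomach were not distinguished (adjusted p = 0.167). Zap70, the kinase that acts after LCK, did the reverse in liver, with a log2 ratio of 1.65, 1.84, 2.07 and 1.77 in vehicle mice 1, 2, 3 and 5. Vehicle lungs 1 to 5 read −0.55, −1.33, −0.37, −0.44 and −0.68 and forestomachs −2.98, −2.78, −2.93 and −2.71, so the 3 tissues did not overlap. Zap70 was 5.67-fold lower in lung than in liver (adjusted p = 2.29e-15), and forestomach was lower again, 25.7-fold below liver (adjusted p = 3.77e-25). Its second probe gave the same order, with means of −1.08 in lung, 2.14 in liver and −1.90 in forestomach. Over all 19 livers at any dose, Zap70 stayed between 1.46 and 2.40 and Cd4 between 3.04 and 3.98.

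Genes of neighbouring lists give the setting, beside shares of all probes of 15.7% higher and 11.1% lower in lung than in liver. Of 20 further T cell receptor signalling genes, 8 were higher in lung than in liver and 0 lower, and so were 8 of 14 T cell surface receptors, 5 of 9 T cell transcription factors, 3 of 9 cytotoxic effectors, 8 of 11 B cell genes and 4 of 8 NK cell genes, with 0 lower in each. The median difference was 0.66 on the log2 scale over the 9 T cell genes, 0.43 over the signalling genes, 0.72 over the surface receptors and 0.02 over all named genes. Between forestomach and lung, 11 signalling genes and 9 surface receptors were lower in forestomach, and 1 and 0 were higher. Of all probes 10.6% were lower and 8.9% higher there. Macrophage and monocyte genes split between lung and liver, with 4 of 8 higher in lung and 2 lower. Neutrophil genes were higher in lung than in liver in 6 of 7, dendritic cell genes in 4 of 7 and lymph node stroma genes in 2 of 6. In each of these lists 0 were lower. Of 5 thymocyte genes 0 were higher in lung and 1 was lower.

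No T cell gene passed both thresholds for a change with IP in any tissue. Of the 81 comparisons of 9 genes, 3 doses and 3 tissues with vehicle, limma called 0 at both thresholds. The share of all probes called was 0% in lung at 12.5, 0.0126% at 25 and 0.079% at 50 mg/kg-bw/day, and 0% at every dose in liver and in forestomach. An unadjusted limma p under 0.05 was found in 7 of the 81 comparisons, and an exact permutation p under 0.05, two-sided over mice, also in 7. Those by limma were 3 members at 12.5 and 1 each at 25 and 50 in lung, where 3.92, 6.53 and 8.81% of all probes had such a limma p, and 1 at 25 and 1 at 50 in liver, where the shares were 2.59% at 12.5, 4.43% at 25 and 6.86% at 50. Those by permutation were Cd5 at each dose and Cd8b1 at 25 in lung, and Cd3e at 12.5 and 25 and Cd8a at 50 in liver. The share of all probes with such a permutation p was not counted. Forestomach had none by either test, where 4.12, 3.6 and 3.9% of all probes had such a limma p at the 3 doses. The median log2 fold change of the 9 genes in lung was 0.25, 0.19 and 0.12 at 12.5, 25 and 50, against 0.004, 0.007 and 0.008 over all named genes, with 8, 5 and 5 of the genes above 0. In liver the medians were 0.03, −0.01 and −0.03, and in forestomach 0.11, 0.01 and 0.08. The comparisons of a tissue share their vehicle mice. In lung and forestomach, vehicle, 12.5, 25 and 50 always lay in array columns 1, 2, 3 and 4 of a slide. Dose and column therefore cannot be told apart there. The liver arrays followed the same columns, except those of mice 9 (column 1) and 14 (column 2).

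**Figure D2:**
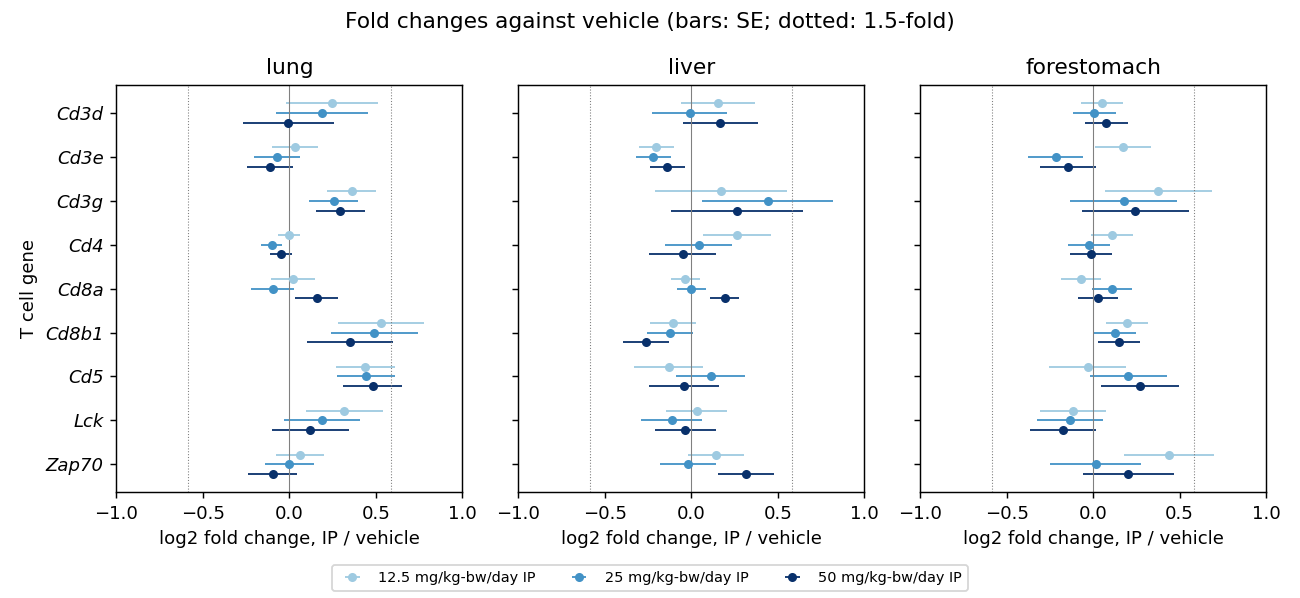
Log2 fold change against vehicle (horizontal axis, points, with SE as bars) of the 9 T cell genes in lung, liver and forestomach, coloured by IP dose. Dotted lines mark a 1.5-fold change, which no point passes. In lung, Cd5 lies between 0.44 and 0.48 at the 3 doses, and Cd3e, Cd4 and Zap70 lie near 0.

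The gene with the lowest p was Cd5 in lung. Its log2 ratio in vehicle mice 1 to 5 was −1.65, −2.60, −1.43, −1.66 and −1.74. At 12.5 mg/kg-bw/day, mice 6 to 10 read −1.57, −1.53, −1.32, −1.37 and −1.10, at 25 mice 11 to 15 read −1.66, −1.02, −1.32, −1.47 and −1.41, and at 50 mice 16 to 20 read −1.52, −1.18, −1.09, −1.55 and −1.34. All 15 exposed mice lay above the vehicle mean of −1.82, but the groups overlapped at each dose, with vehicle mouse 3 among the exposed mice. The log2 fold changes were 0.44 ± 0.17, 0.44 ± 0.17 and 0.48 ± 0.17 (SE), with limma p of 0.0162, 0.016 and 0.00945, adjusted p of 1, 0.584 and 0.321, and exact permutation p of 0.0397, 0.0476 and 0.0238, where 0.00794 is the smallest that 252 splits allow. Within slides, the difference at 50 ran from 0.13 to 1.42 and was positive on 5 of 5 slides. Each of these differences sets array column 4 against column 1. Vehicle mouse 2 decided the size. Without it the log2 fold changes were 0.24, 0.25 and 0.28, with limma p of 0.066, 0.065 and 0.0345 and adjusted p of 0.569 at 50.

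Vehicle mouse 2 was low in lung for most of the T cell genes. It had the lowest ratio of its group in 7 of the 9 genes, all but Cd4 and Cd8b1, and lay 0.44 below its group on average. The same lung was lowest of its group over the 11 B cell genes, with a mean log2 ratio of 0.31 against 0.71 to 1.44 in the other vehicle lungs, over the 20 signalling genes (−0.66 against −0.45 to −0.27) and over the 14 surface receptors (0.57 against 0.73 to 0.91). Its lung genes averaged 5.96, within the range of 5.83 to 6.26 in the group, and 61.8% of its probes were well above background in Cy5, within the group range of 53.0 to 85.4%. Along with Cd5, the B cell genes were higher at 50, with a mean log2 ratio of 1.31 to 1.80 against 0.31 to 1.44 in vehicle. Of these genes 0 of 11 passed the FDR threshold. An unadjusted limma p under 0.05 was found for 6 of 11, where 8.81% of all probes had one in either direction. The part of B cells in the Cd5 values was not tested.

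**Figure D3:**
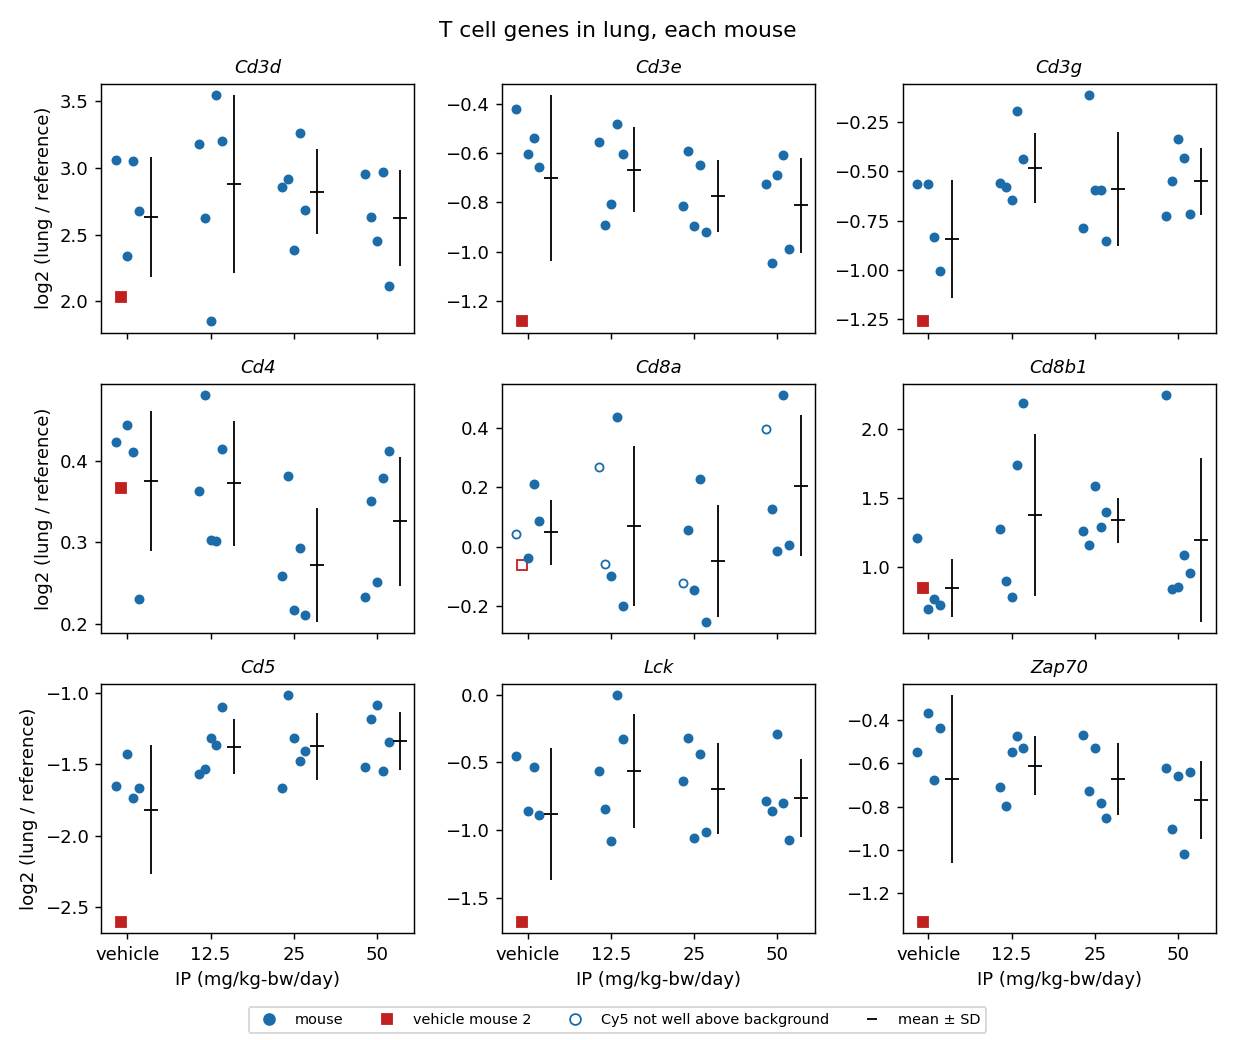
Log2 ratio of lung over reference RNA (vertical axes, a separate scale for each gene) of the 9 T cell genes at each IP dose. Points are mice, hollow where Cy5 was not well above background, bars are the mean ± SD (n = 5), and the red square is vehicle mouse 2. That mouse has the lowest vehicle value in all panels but Cd4 and Cd8b1, and at every dose the exposed mice overlap the vehicle mice.

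Cd8b1 in lung gave the largest log2 fold changes of the 9 genes at 12.5 and 25, with a few high mice. At 12.5 mg/kg-bw/day the lungs of mice 6 to 10 read 1.27, 0.90, 0.78, 1.74 and 2.19, at 25 those of mice 11 to 15 read 1.26, 1.16, 1.59, 1.29 and 1.40, and at 50 those of mice 16 to 20 read 2.25, 0.84, 0.86, 1.09 and 0.96. Mice 9, 10 and 16 were the highest, against 1.21 for the highest vehicle mouse, and the group at 25 was the tightest. The log2 fold changes were 0.53, 0.49 and 0.35 (SE 0.25 each), with limma p of 0.0452, 0.0618 and 0.174 and exact permutation p of 0.0635, 0.0159 and 0.238. Without mouse 16 the fold change of Cd8b1 at 50 was 0.09. Its partner Cd8a gave 0.02, −0.10 and 0.16 by the brightest probe and 0.26, 0.23 and 0.23 by the second, none with an unadjusted limma p under 0.05.

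Of the CD3 chains in lung, Cd3g alone reached an unadjusted limma p under 0.05, at 12.5 mg/kg-bw/day (log2 fold change 0.36 ± 0.14 SE, p = 0.0192, adjusted p = 1, exact permutation p = 0.0635). Vehicle lungs 1 to 5 read −0.56, −1.26, −0.56, −1.003 and −0.83, and those of mice 6 to 10 read −0.56, −0.58, −0.64, −0.20 and −0.44. All 5 exposed mice were above the vehicle mean of −0.84, yet 2 vehicle mice lay among them. At 25 and 50 the log2 fold changes of Cd3g were 0.26 and 0.29, and without vehicle mouse 2 that at 12.5 was also 0.26. Cd3d gave 0.25, 0.19 and −0.01 and Cd3e 0.03, −0.07 and −0.11 (SE 0.26 and 0.13). Lck (0.32, 0.19 and 0.12), Zap70 (0.06, −0.0010 and −0.10) and Cd4 (−0.0028, −0.10 and −0.05) had no unadjusted limma p under 0.05 by their brightest probes. The second Zap70 probe reached 0.26 at 12.5 (adjusted p = 1, exact permutation p = 0.0873), with an unadjusted limma p under 0.05.

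In liver, Cd3e was lower in the exposed groups by a small amount. Livers of vehicle mice 1, 2, 3 and 5 read −1.32, −1.38, −1.24 and −1.33, and those of mice 11 to 15 at 25 mg/kg-bw/day read −1.53, −1.45, −1.42, −1.84 and −1.46. The groups did not overlap at this dose, the only such case among the 81 comparisons. With no effect, groups separate fully in a share of 0.0159 of splits in liver and forestomach and 0.00794 in lung. The share of all probes that separate in this way was not counted. A case such as that of Cd3e at 25 can thus arise by chance among 81 comparisons. The log2 fold change was −0.22 ± 0.10 (SE), with a limma p of 0.0417, an adjusted p of 0.905 and an exact permutation p of 0.0159, the smallest that 126 splits allow. At 12.5 and 50 it was −0.20 (exact permutation p = 0.0317) and −0.14 (exact permutation p = 0.175). The Cd3e value at 25 was 0.11 under median-centring, so its direction depended on the normalization, and −0.29 without the bright arrays. Cd8a in liver at 50 was 0.19 on the log2 scale (limma p = 0.0368, adjusted p = 0.72, exact permutation p = 0.0476), but it was not well above background in any vehicle liver and in 2 of 5 at 50. Zap70 at 50, with livers of mice 16 to 20 at 2.20, 2.40, 2.12, 2.26 and 1.74, gave 0.31 ± 0.16 (SE, adjusted p = 0.732, exact permutation p = 0.0794). Cd4 gave 0.27, 0.04 and −0.05 at 12.5, 25 and 50.

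Forestomach showed no T cell gene with an unadjusted limma p under 0.05. The largest log2 fold changes there were those of Zap70 at 12.5 (0.44 ± 0.26 SE, exact permutation p = 0.0952) and Cd3g at 12.5 (0.38 ± 0.31, exact permutation p = 0.333), the dose group's highest values for both being in mice 7 and 8. For Zap70 these mice read −2.16 and −1.84, against −2.98 to −2.71 in vehicle, and for Cd3g they read −1.53 and −1.23, against −2.61 to −2.09. Mouse 8 was a bright array, and the second Zap70 probe gave −0.05. Within slides the mean difference was 0.30 for Zap70 and 0.18 for Cd3g. Cd5 at 50 was 0.27 ± 0.22 (exact permutation p = 0.19) with 4 of 5 mice above the vehicle mean.

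Whether the effect of 50 mg/kg-bw/day differed between tissues was tested by interaction in the joint model. No T cell gene passed the FDR threshold, while 0.0162% of all probes did for lung against liver, 0.00359% for forestomach against liver and 0.0144% for lung against forestomach. An unadjusted limma p under 0.05 was found for Cd8b1 between lung and liver, with a difference of 0.61 ± 0.27 (SE) on the log2 scale (adjusted p = 0.663), but it was 0.35 without lung mouse 16. Cd5 followed at 0.52 ± 0.29 (adjusted p = 0.746), and at 0.33 without lung vehicle mouse 2.

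The wider T cell lists did not pass the FDR threshold with IP either. Their counts called were 0 at every dose and tissue. In lung, 5, 1 and 5 of the 20 signalling genes had an unadjusted limma p under 0.05 and were higher at 12.5, 25 and 50, where 3.92, 6.53 and 8.81% of all probes had such a p in either direction, with Vav1 the largest at 50 (0.45 ± 0.13 SE, adjusted p = 0.182). Vav1 encodes a guanine nucleotide exchange factor that acts after ZAP-70. The largest among the surface receptors at 50 was Ccr7, a homing receptor for lymph nodes (0.70 ± 0.35, adjusted p = 0.593), and among the transcription factors Ets1 (0.33 ± 0.21, adjusted p = 0.741). Of 9 cytotoxic effectors, 0, 2 and 1 had an unadjusted limma p under 0.05 and were lower, to be read against the same shares of all probes, and their median log2 fold changes were −0.06, −0.14 and −0.09. Gzma, a granule protease, gave −0.65, −0.91 and −0.78 (adjusted p = 0.536 at 50). Of 8 NK cell genes, 0, 1 and 3 had such a p and were lower.

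How the genes varied from mouse to mouse within a dose group was examined next. In lung they tended to deviate together. The Pearson r of deviations from the group means had a median of 0.32 over the 36 pairs of genes (n = 20 mice), and 13 pairs exceeded 0.5. The medians were 0.02 in liver and 0.12 in forestomach (n = 19 each), with 4 and 6 pairs above 0.5. Cd4 stood apart in lung, with a median r of 0.04 with the other 8 genes, against 0.55 for Cd3e and 0.51 for Lck. Without the bright arrays the medians were 0.43, 0.16 and 0.12. These are descriptions over mice that share slides, and no test was made of the medians.

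**Figure D4:**
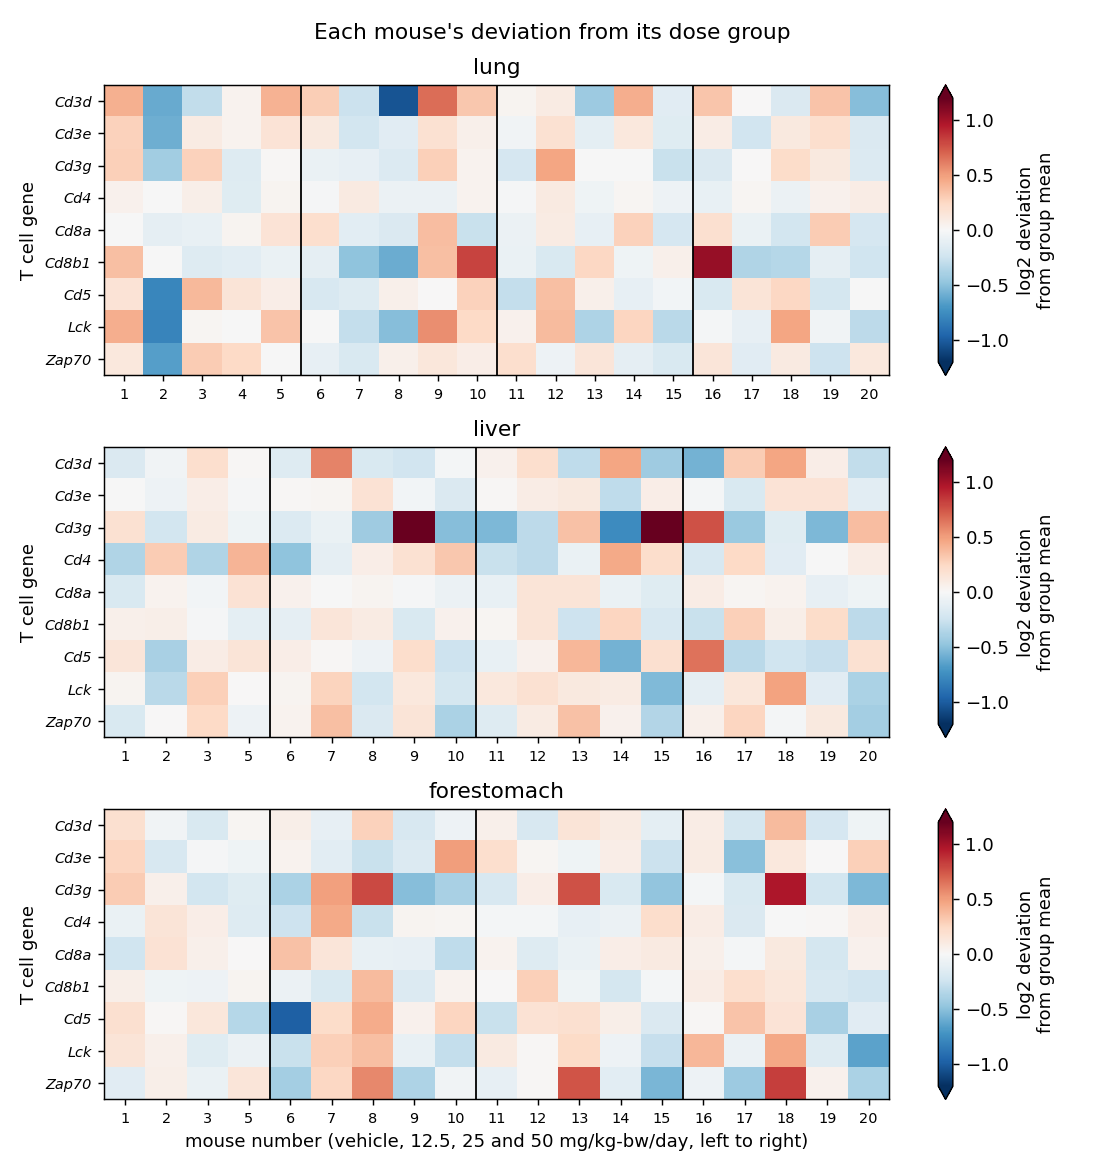
Deviation of each mouse from the mean of its dose group (colour, log2 units, ending at the limits of the scale) for the 9 T cell genes (rows) in lung, liver and forestomach. Columns are mice, with vertical lines between the dose groups, vehicle first. In lung, vehicle mouse 2 is low in 7 genes, and in liver Cd3g is high in mice 9 and 15, both bright arrays.

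For 7 pairs chosen by their biology, correlations were tested in each tissue by permuting mice within dose groups. These were 21 relations in all, with Benjamini-Hochberg adjustment. The pairs were chosen with earlier results of these data known, so they were not set in advance of the data. In lung, Cd3e correlated with Cd3d (r = 0.71, permutation p = 0.00035, adjusted p = 0.00577, Spearman rho = 0.77, rho permutation p = 0.00035) and with Cd3g (r = 0.73, permutation p = 0.00055, adjusted p = 0.00577, rho = 0.73, rho permutation p = 0.00095). Both held without the 2 mice farthest from the median of the first gene (r = 0.77 and 0.69, adjusted permutation p = 0.0233 for both) and with slide means removed (r = 0.76 and 0.92). Under median-centring Cd3e kept its relation with Cd3g (r = 0.96) but that with Cd3d had an adjusted permutation p of 0.258 (r = 0.30). Cd3e also correlated with Cd8a in lung (r = 0.54, permutation p = 0.00748, adjusted p = 0.0314, rho = 0.62, rho permutation p = 0.00646), but the adjusted permutation p was 0.0622 without the 2 farthest mice and 0.313 with slide means removed, and r was −0.28 under median-centring. No relation of Cd3e with Cd4 was found in lung (r = 0.04, permutation p = 0.888, rho = 0.08, rho permutation p = 0.758), although under median-centring r was 0.89 (adjusted permutation p = 7e-05). Nor was one found of Cd8a with Cd8b1 (r = 0.21, permutation p = 0.505, rho = 0.25, rho permutation p = 0.372). Cd8a stood here by its brightest probe, with Cy5 well above background on 14 of 20 lung arrays. Its second probe, well above background on 19 of 20, was not tested in pairs. With so dim a probe, the relations of Cd8a cannot decide whether these genes vary together.

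Lck and Zap70 correlated in liver and in forestomach. In liver r was 0.65 (permutation p = 0.00641, adjusted p = 0.0314, rho = 0.64, rho permutation p = 0.00823), and it was 0.73 without the 2 farthest mice (adjusted permutation p = 0.0257). With slide means removed it was 0.60 (adjusted permutation p = 0.0656). In forestomach r was 0.71 (permutation p = 0.00378, adjusted p = 0.0265, rho = 0.63, rho permutation p = 0.0142 and 0.0598 adjusted), with adjusted permutation p of 0.0622 without the 2 farthest mice (r = 0.66) and 0.215 with slide means removed (r = 0.50). In lung the same pair gave r = 0.47 (permutation p = 0.103, rho = 0.30, rho permutation p = 0.227), and −0.08 without the 2 farthest mice, but r = 0.64 with slide means removed (adjusted permutation p = 0.0471) and r = 0.77 under median-centring (adjusted permutation p = 0.00117). Whether the relation differed between tissues was not tested. The other 13 relations had an adjusted permutation p of 0.0556 or more.

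The named genes whose deviations were most like the mean of the 9 T cell genes in lung were Ptprc (CD45, the leukocyte phosphatase, r = 0.95), Arl5c (0.92), Arhgap4 (0.90), Ptprcap (0.90) and Ptpn6 (0.90), over 20 mice and 18450 probes. In liver they were Emp2 (r = 0.88), Cox7a1, Acot13, Mettl15 and Keap1 (0.80 for the last, 19 mice and 14311 probes), and in forestomach Rnaseh2a (r = 0.94), Obsl1, Apobr, Cstad and Clcf1 (0.92 for the last, 19 mice and 15779 probes). In lung the mean of the 9 genes also went with the mean of the T cell transcription factors (r = 0.91), the surface receptors (r = 0.89), the B cell genes (r = 0.86) and the signalling genes (r = 0.71), over 20 mice that share slides. In forestomach it went with the cytotoxic effectors (r = 0.90), the surface receptors (r = 0.86) and the signalling genes (r = 0.84), and ran against the keratinized epithelium genes (r = −0.77), over 19 mice. The bright forestomach arrays, mice 18 and 8, had the highest mean deviations of the 9 genes there (0.35 and 0.24). The part of brightness in these r values was not tested. In liver, r with these T cell lists lay between 0.45 and 0.51. These values are descriptions.

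Array brightness moved with several of the genes in liver. Across the 19 livers, the share of probes well above background had a Pearson r of 0.91 with Cd3g, 0.70 with Cd5, −0.75 with Cd3d and −0.85 with Cd8b1, given as descriptions. Cd3g lay between −1.05 and 0.02 in the 5 bright livers and between −2.02 and −1.51 in the other 14. All 5 bright livers were of exposed mice. In lung the r of the 9 genes ran from −0.54 to 0.37, and in forestomach from −0.24 to 0.61. Without the bright arrays the count of T cell genes called was 0 at every dose and tissue, 8 for lung against liver in vehicle mice and 5 for forestomach against lung. The part of brightness in single values, such as the liver Cd3g fold change of 0.44 at 25 mg/kg-bw/day, was not tested.

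**Figure D5:**
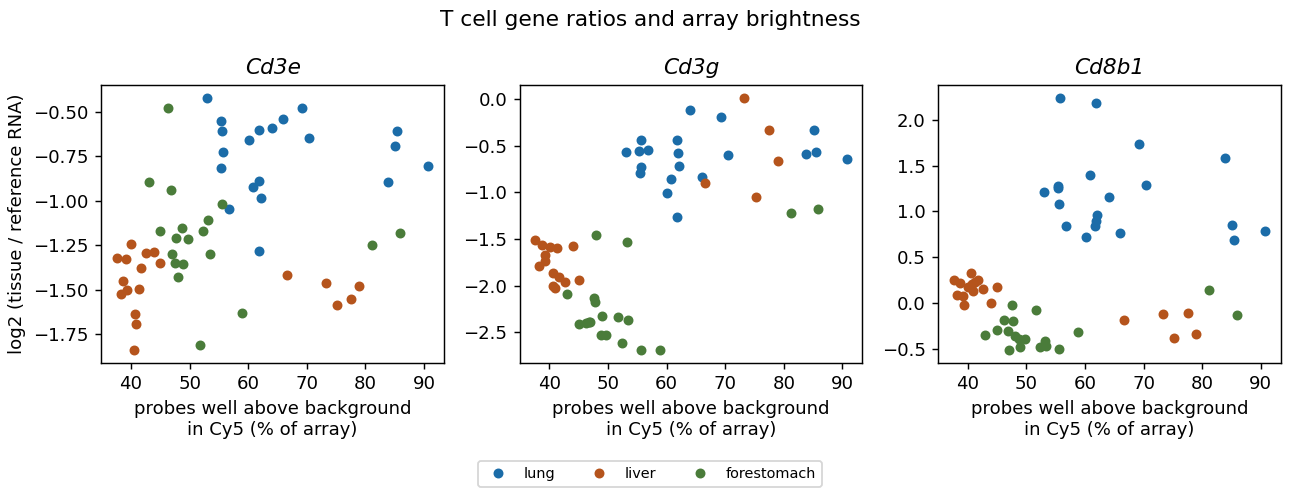
Log2 ratio of tissue over reference RNA (vertical axes) of Cd3e, Cd3g and Cd8b1 against the percentage of probes with Cy5 well above background (horizontal axis), each point an array, coloured by tissue. In liver, Cd3g is higher and Cd8b1 lower on the 5 bright arrays, while Cd3e shows no such order (r = 0.02).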

How the data were processed

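Each array's scanner file held spot intensities extracted by the authors with Agilent Feature Extraction, with per the file headers a median signal and background per channel and a log10 ratio of Cy5 over Cy3. The authors also deposited a table of normalized log2 ratios, used only as an alternative in lung and forestomach, since in liver its probe names did not match the scanner ratios (r between −0.007 and 0.007). From the intensities, the log2 ratio of median signals was loess normalized within each array (span 0.3) with no background correction, control spots at weight 0 and outlier spots left out, and spots of a probe were averaged. Of 55681 probes, 26413 were named through their accession in a RefSeq table of GRCm38.p6. Models were fitted with limma 3.58.1 (R 4.3.3) over all probes, 1 model of 4 dose groups per tissue and 1 joint model for tissues and interactions, with Benjamini-Hochberg adjustment over all probes. Exact permutation tests compared single genes, and 100000 permutations within dose groups tested pairs. The steps were tested on simulated data. The T cell genes, the other gene lists and the 7 pairs were chosen with earlier results of these data known. Genes outside the lists were named by likeness, the 5 highest correlations with the mean deviation of the T cell genes per tissue, or as the largest absolute log2 fold change of a list. The number of arrays and signal over background limit the precision. Mouse numbers mark the same animal across tissues, and deviations of same-numbered arrays correlated with a median r of 0.045 between lung and liver, 0.154 between lung and forestomach and 0.017 between liver and forestomach. Same-numbered lung and forestomach arrays shared a slide for all mice but mouse 3. Animal and slide therefore cannot be told apart in that r. Alternatives were other background corrections, normalizations, filters, blocks and thresholds, and each array left out. Leaving out the bright arrays was an alternative chosen after seeing the data.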

Additional observations from a re-analysis of the deposited data

Results flagged for a closer look

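Among 108 sets of a T cell gene in 1 tissue and dose group, 10 held a mouse set far apart from the others of its group, where about 5.4 would be expected by chance at 1 in 20. They were 3 in lung, 5 in liver and 2 in forestomach, and 2 were on bright arrays.

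In lung, vehicle mouse 2 was low for Cd3e (−1.28 on the log2 ratio scale, against −0.66 to −0.42 in the other vehicle mice) and for Cd5 (−2.60, against −1.74 to −1.43), and mouse 16 at 50 mg/kg-bw/day was high for Cd8b1 (2.25, against 0.84 to 1.09). Vehicle mouse 2 was also low for Cd5 in liver (−3.20, against −2.72 to −2.65), where no vehicle array had Cd5 well above background.

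The other liver samples were mouse 7 at 12.5, high for Cd3d (0.75, against −0.07 to 0.14), mouse 14 at 25, low for Cd3e (−1.84, against −1.53 to −1.42), mouse 9 at 12.5, high for Cd3g (−0.33, against −2.02 to −1.60), and mouse 15 at 25, low for Lck (−3.94, against −3.31 to −3.23). The arrays of mice 9 and 15 were bright. In forestomach they were mouse 15 at 25, high for Cd4 (0.80, against 0.49 to 0.57), and mouse 6 at 12.5, low for Cd5 (−2.67, against −1.63 to −1.24).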

How the results depend on the processing

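Counts of T cell genes called in a dose comparison or interaction were 0 under every alternative run, except in lung with an unadjusted limma p under 0.05 and 1.2-fold, which gave 3 genes at 12.5 mg/kg-bw/day (Cd3g, Cd8b1 and Cd5), 1 at 25 and 1 at 50 (Cd5). Leaving out each array in turn gave 5 to 8 genes for lung against liver in vehicle mice, with 5 without lung vehicle mouse 1, 4 for forestomach against liver and 5 to 6 for forestomach against lung. With mouse number as a replicate block (correlation 0.0459) the counts were 8, 4 and 5 and those of the interactions 0, and the block changed no call. The filter on dim probes left 9 of the T cell genes in lung and 6 each in liver and forestomach.

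Of single genes between tissues, Cd3e between lung and liver was not called with Cy5 alone (0.44 on the log2 scale) or the scanner's own log ratio (0.35), nor was Cd8b1 (0.04 and 1.02). Cd8b1 between forestomach and liver was not called with normexp (−0.57) or median-centring (−0.32). Calls gained were Lck between forestomach and liver (0.94) and Cd3e between forestomach and lung (−1.08) with median-centring, Cd3d between forestomach and liver (−1.43) with the scanner's log ratio, and Cd3e between forestomach and lung without lung vehicle mouse 2 (−0.60). The causes were not tested.

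Of the 21 pair relations, 5 had an adjusted permutation p at or under 0.05. The count was 4 with slide means removed, of which Cd3e with Cd3d and with Cd3g in lung were among the 5. Gained were Cd3e with Cd5 (r = 0.89, adjusted permutation p = 0.0134) and Lck with Zap70 (r = 0.64, adjusted permutation p = 0.0471), both in lung. In the main setting Cd3e with Cd5 in lung had r = 0.55 (adjusted permutation p = 0.272, rho = 0.25). Its r was 0.13 without the 2 mice farthest from the median (adjusted permutation p = 0.922). Under median-centring it was 0.93 (adjusted permutation p = 7e-05). The count was 3 without the 2 mice farthest from the median and 16 with median-centring, under which Cd3e and Cd8a in lung turned to an r of −0.28. The cause was not tested.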

Other observations

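B cell genes in lung had larger log2 fold changes than the T cell genes, with medians of 0.47, 0.58 and 0.77 over 11 genes from the lowest to the highest dose, and 10 of 11 above 0 at each dose. The largest at 50 mg/kg-bw/day was Ms4a1, the gene of the B cell surface protein CD20 (1.02 ± 0.41 SE, adjusted p = 0.432 by limma). None passed the FDR threshold. The vehicle mean of these genes includes mouse 2, whose value of 0.31 was the lowest of the group.

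Clec9a, a receptor of cross-presenting dendritic cells, gave in exposed lungs against vehicle −0.52, −0.59 and −0.51 (log2, lowest dose first), without passing the FDR threshold (limma adjusted p = 0.0973 for the highest dose). It was the largest of 7 dendritic cell genes at each dose. The medians of the 7 were −0.02, −0.07 and −0.12, with 2, 0 and 1 above 0. An unadjusted limma p under 0.05 was found for 1 of the 7 at each dose, where 3.92, 6.53 and 8.81% of all probes had one.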
